A study of Mus musculus with 6 samples.

Results

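The proteasome genes were the 45 rows, of 45038 in the deposited table, whose symbol begins with Psma to Psmg and ends in a number, without the interferon-inducible subunits Psmb8, Psmb9 and Psmb10. Transcripts were measured by RNA sequencing in 3 circulating tumor cells (CTCs, tumor cells found in blood) and 3 tumor cells of mouse, 1 of either kind from each of the mice labelled 1157, 1168 and PDGF1. The labels used here state no genotype, strain, age or treatment for any group, and the sample titles of the tumor cells carry the letters GBM. The source label calls the CTCs single-cell, and the series text counts 6 single cells. The spread given here is that between 3 mice, and sets of values run over mice 1157, 1168 and PDGF1.

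The name pattern takes in more than constitutive subunits. It holds 8 genes of the alpha ring (Psma), 8 of the beta ring (Psmb), 6 ATPases (Psmc) and 14 non-ATPase genes (Psmd) of the regulatory particle, 5 activators and inhibitors (Psme and Psmf1) and 4 assembly chaperones (Psmg). Psmg1 to Psmg4, Psmd5, Psmd9 and Psmd10 help to assemble the complex and are not part of the finished particle, Psma8 belongs to the testis, and Psmb11 belongs to the thymus. All 45 are protein-coding in GENCODE M21 and lie on 16 chromosomes.

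The proteasome degrades proteins that carry ubiquitin chains. Its barrel-shaped core is made of outer alpha rings that gate the entry and inner beta rings, whose subunits Psmb5, Psmb6 and Psmb7 cut after hydrophobic, acidic and basic residues. The regulatory particle on either end binds ubiquitin, removes it, unfolds the protein with a ring of ATPases and feeds it into the core. In the finished particle the subunits of a ring are present in equal numbers. When the proteasome is blocked, the transcription factor Nfe2l1 raises the expression of its genes together through antioxidant response elements. Tumor cells with a high protein turnover depend on this machinery.

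The promoters of 4 members are shown, each among the 4 highest members of at least 1 cell and with a match to a motif marked below. Psma1, Psma3, Psma7, Psmb1, Psmb3, Psmb7, Psmc3, Psmd1 and Psmd4 were also among the 4 highest of a cell. No match to either marked motif was found for them, and they are not shown. The promoters run from 250 bases before the annotated start to 50 bases after it (RefSeq, GRCm38.p6). Capitals mark matches on either strand to TGACNNNGC, the core of the antioxidant response element, or to ACTTCCG, a core bound by ETS factors. Psmb5 lies at chr14:54617946-54618245 on the minus strand, Psmb6 at chr11:70525107-70525406 on the plus strand, Psmb4 at chr3:94886909-94887208 on the minus strand and Psmc1 at chr12:100109952-100110251 on the plus strand.
Psmb5: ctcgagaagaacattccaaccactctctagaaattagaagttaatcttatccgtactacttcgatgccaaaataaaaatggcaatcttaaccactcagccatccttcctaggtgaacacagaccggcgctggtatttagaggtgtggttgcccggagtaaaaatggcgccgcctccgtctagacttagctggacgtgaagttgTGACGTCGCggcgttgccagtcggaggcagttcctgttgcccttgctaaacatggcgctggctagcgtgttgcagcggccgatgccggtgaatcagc
Psmb6: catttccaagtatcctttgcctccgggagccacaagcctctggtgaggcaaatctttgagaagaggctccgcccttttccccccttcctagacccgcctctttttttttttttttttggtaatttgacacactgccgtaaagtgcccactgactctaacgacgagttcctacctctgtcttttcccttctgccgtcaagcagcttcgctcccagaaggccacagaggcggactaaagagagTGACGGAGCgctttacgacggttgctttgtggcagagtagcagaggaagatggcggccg
Psmb4: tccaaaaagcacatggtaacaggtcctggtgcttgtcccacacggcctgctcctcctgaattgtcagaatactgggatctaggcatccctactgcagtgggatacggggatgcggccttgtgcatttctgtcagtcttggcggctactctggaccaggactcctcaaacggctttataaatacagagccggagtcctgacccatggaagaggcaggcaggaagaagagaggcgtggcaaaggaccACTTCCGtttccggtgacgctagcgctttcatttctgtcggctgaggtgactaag
Psmc1: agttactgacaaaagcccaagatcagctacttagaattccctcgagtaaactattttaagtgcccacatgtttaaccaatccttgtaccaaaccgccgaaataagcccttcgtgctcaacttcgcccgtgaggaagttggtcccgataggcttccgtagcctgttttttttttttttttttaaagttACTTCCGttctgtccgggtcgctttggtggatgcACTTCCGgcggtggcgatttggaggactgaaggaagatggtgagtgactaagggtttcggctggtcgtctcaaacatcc

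Promoter sequence was found for 37 members. TGACNNNGC was present in those of 6 members (16.2%), among them Psmb5, where it begins 47 bases before the start, and Psmb6, where it begins 9 bases before it. Of 32851 promoters of the same length, 12.4% held it, and of 18146 promoters of named protein-coding genes 13.2% did. ACTTCCG was present in 14 members (37.8%), against 6.42% of all promoters and 8.85% of those of named protein-coding genes. The CCAAT box, searched as CCAAT, was present in 13 members (35.1%), against 37.4% of all promoters and 37.7% of those of named protein-coding genes. The GC box, searched as GGGCGG, was present in 22 members (59.5%), against 35.7% and 49.4%. These motifs were searched after the values had been seen, on both strands, and none of the 4 motifs contains another. A match is a run of letters and not a measured binding site.

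Both cells of mouse 1168 had nearly the whole complex at 1 FPKM or more, and the other 4 cells had fewer members at that level. At 1 FPKM or more (fragments per kilobase of transcript, scaled to a fixed number of mapped fragments), mouse 1168 had 43 of 45 members in its CTC and 43 in its tumor cell. Mouse 1157 had 19 in its CTC against 13 in its tumor cell. Mouse PDGF1 had 5 against 11. The 2 members missing in mouse 1168 were Psma8 and Psmb11, the genes of testis and thymus. Psma8 was at most 0.118 FPKM and Psmb11 at most 0.609 FPKM in any of the 6 cells. At 0.1 FPKM or more the members numbered 40, 43 and 31 in CTCs, against 35, 45 and 36 in tumor cells. Named protein-coding genes at 1 FPKM or more made up 10.3%, 43.1% and 4.85% of their kind in CTCs, against 16.0%, 49.9% and 10.3% in tumor cells.

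**Figure D1:**
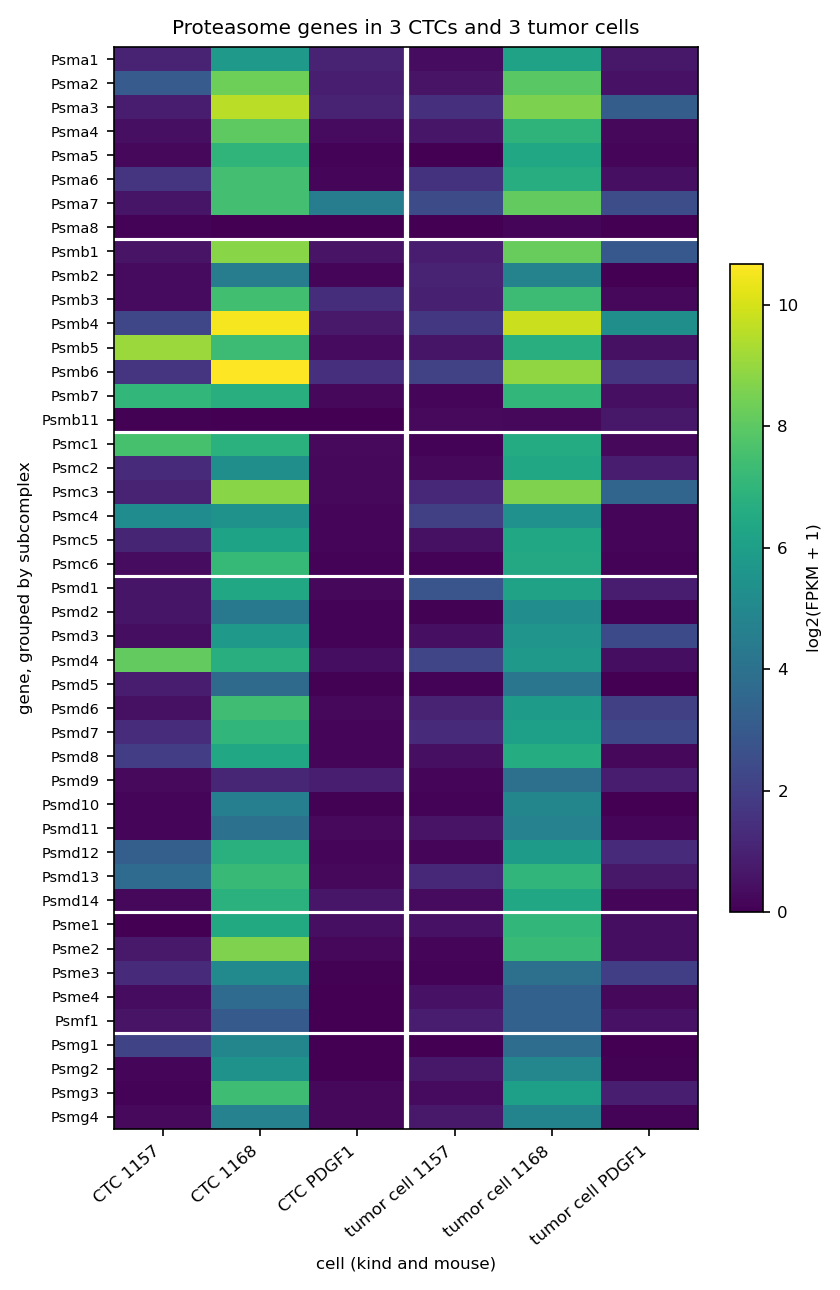
Levels of the 45 proteasome genes as log2(FPKM + 1) in each cell, with genes down the page in blocks by subcomplex and cells across, CTCs left of the white line and tumor cells right of it. Both cells of mouse 1168 are bright throughout except for Psma8 and Psmb11, while the CTC of mouse 1157 has a few bright genes, led by Psmb5 at 541 FPKM.

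The low values rest on few fragments. Read totals are not given in the sources used here, but FPKM of long genes with a single annotated transcript came in steps. Of low values, 90.0% to 94.5% lay within 10% of a whole multiple of the step. The step was set from the same values, so this share describes the spacing and does not test it. By this spacing a value of 1 FPKM over 1 kilobase stood for about 25.9, 30.1 and 40.9 fragments in CTCs, and for 11.1, 53.1 and 39.2 fragments in their tumor cells. With the longest annotated transcript of each gene as its length, 12, 2 and 22 of 45 members had fewer than 10 fragments in those CTCs, and 25, 0 and 13 in those tumor cells. Fragments that were copied in amplification are not independent molecules, so these numbers cover counting only. The 99th percentile of 1426 chemosensory receptor genes, silent in most tissues, lay at 0.773, 0.128 and 2.71 FPKM in the CTCs and at 1.99, 1.33 and 7.14 FPKM in the tumor cells. Above that level were 20, 43 and 1 members in the CTCs and 6, 43 and 3 in the tumor cells. Of named protein-coding genes, 13.2%, 53.9% and 2.28% lay above it in the CTCs and 7.55%, 46.6% and 1.43% in the tumor cells.

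Markers of the glioma and oligodendrocyte progenitor list summed to 12.3, 587 and 0.574 FPKM in CTCs and to 7.55, 270 and 1.99 FPKM in the tumor cells. Of 11 such genes, 4, 11 and 0 reached 1 FPKM in CTCs, and 4, 9 and 1 did so in tumor cells. The 6 housekeeping genes summed to 1534, 3448 and 7.03 FPKM in CTCs against 35.6, 4378 and 16.9 FPKM in tumor cells. Both sums were highest in mouse 1168, as were those of the proteasome genes, and the CTC of mouse 1157 had 1217 of its 1534 FPKM in Eef1a1, a translation factor. What part cell or RNA quality had in the low values was not tested.

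No proteasome gene passed the test between CTCs and tumor cells, and the SD between mice of at least 1 kind of cell was larger than the difference for each of the 27 members tested. The highest difference was that of Psmb5, and its values show how unlike the mice were. Psmb5 was at 541, 156 and 0.239 FPKM in CTCs, against 0.532, 105 and 0.394 FPKM in the tumor cells. The CTC lay far above the tumor cell in mouse 1157, by 1.48-fold in mouse 1168 and below it in mouse PDGF1, so the groups overlapped. On the scale of log2(FPKM + 1) the difference was 2.95 (SE 3.90, adjusted p = 0.9999, limma). This fit has no block for the mouse, so differences between mice add to its SE. Of 4165 genes tested, 27 were members. By limma 0 of the 27 passed an adjusted p of 0.05 and 0 had an unadjusted p under 0.05, where 0% of all genes tested passed and 7 genes had an unadjusted p under 0.05. With the mouse as a block 0 members passed as well, against 0.0240% of all genes (1 gene). There Psmb5 (SE 1.44, unadjusted p = 0.0403) and Psmc1 (SE 1.30, unadjusted p = 0.0449) were the 2 members under 0.05, next to 5.21% of all genes. Their adjusted p were 0.896 and 0.918 by limma.

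Differences (CTC minus tumor cell) were positive for 16 of the 27 members (59.3%) and negative for 11, where 47.1% of all genes tested were positive. The members' median was 0.19 beside a median of -0.06 over all genes tested. The filter asked for 1 FPKM in no fewer than 3 cells, and over all 45 members the median was 0.09. With FPKM rescaled to the same sum of named protein-coding genes, the median of tested members turned to -0.36 and that of all genes to -0.51 (38 members tested). Single cells set the direction: the members' median was -1.92 without the CTC of mouse 1168 and 1.88 without its tumor cell. The median of all genes tested was -0.98 and 0.96 there. In direction, 3 of 45 members were higher in the CTC of all 3 mice (Psma2, Psmc1 and Psmg1), 2 were lower in all 3 (Psmb11 and Psmf1) and 40 were mixed. The like share over all genes was not computed, so these counts have no background. In mouse PDGF1, Psma2, Psmc1 and Psmg1 were under 1 FPKM in both cells, with differences of 0.39, 0.05 and 0.04. None of the 45 had a difference of 1 or more that pointed one way in every mouse, where 0.336% of genes tested were higher and 0.720% lower by that rule. CTC values lay fully below tumor cell values for 1 member, Psmb11, at 0.0539, 0.0155 and 0 FPKM in CTCs against 0.190, 0.158 and 0.609 FPKM in tumor cells. Every one of these is under 1 FPKM, the gene was not tested, and the like share among genes tested was 1.30%. CTC values lay fully above for 0 members, against 0.264% of genes tested.

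Within mouse 1168, the one mouse in which the complex can be read subunit by subunit, the members' summed FPKM was higher in the CTC. The sign of their median difference depended on the scaling. The members summed to 8534 FPKM in the CTC and 5367 FPKM in the tumor cell, a ratio of 1.59, and made up 1.38% and 1.21% of the FPKM of named protein-coding genes, a ratio of 1.14. Of the 43 members present, 8 had a CTC value higher by 1 or more (log2) and 2 a lower one. Of all rows that reached 1 FPKM in either cell, 22.7% were higher and 24.9% lower, and of named protein-coding rows 22.1% and 23.6%. The median over the 43 members was 0.27, and over all such rows it was 0.04. Over all 45 members the median was 0.24, and rescaled to named protein-coding genes it turned to -0.09. These compare 1 library with 1 other, with no replicate check. The same 2 cells differed in markers of other cell types: 12 microglia and macrophage genes summed to 245 FPKM in the CTC and 2542 FPKM in the tumor cell, with 11 of the 12 lower in the CTC by 1 or more (log2), and 8 leukocyte genes summed to 5.93 and 312 FPKM. The part of these markers in the proteasome levels of mouse 1168 was not tested.

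In the alpha ring of mouse 1168, Psma3, Psma4, Psma6, Psma5 and Psma2 were higher in the CTC and Psma7 and Psma1 lower. Psma3 was at 753 FPKM in the CTC against 373 FPKM in the tumor cell, and Psma4 at 258 against 123 FPKM. Psma7, with the highest mean log2 level of this ring, was at 0.512, 180 and 21.3 FPKM in CTCs against 4.65, 278 and 4.67 FPKM in the tumor cells. It was thus lower in the CTC in mice 1157 and 1168 and higher in mouse PDGF1 (log2 difference -0.18, SE 4.04), and with quantile normalization the difference turned to 0.03. Psma2 was at 7.25, 317 and 0.863 FPKM in CTCs against 0.477, 242 and 0.420 FPKM in tumor cells. Its CTC value was the higher one in each mouse, by 2.48, 0.39 and 0.39 on the log2 scale, and its fitted difference was 1.09 (SE 3.45, adjusted p = 0.9999, limma).

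In the beta ring the 3 catalytic genes differed in direction, and the genes of Psmb5 and Psmb7 overlap others (Mir686 on the same strand for Psmb5, Gm27634 on the same and Nek6 on the opposite strand for Psmb7). Psmb6, which cuts after acidic residues, had the highest level of any member in the CTC of mouse 1168. It was at 2.05, 1631 and 1.77 FPKM in CTCs against 3.35, 481 and 2.17 FPKM in the tumor cells, so the CTC was 3.39-fold higher in mouse 1168 and lower in the others. Its fitted difference was 0.35 (SE 4.12), and -0.28 after rescaling to named protein-coding genes. Psmb7, which cuts after basic residues, was at 132, 102 and 0.168 FPKM in CTCs against 0.0914, 134 and 0.351 FPKM in tumor cells. In mouse 1168 it was lower in the CTC, at 0.760 of the tumor cell, while Psmb5 and Psmb6 were higher. Psmb4, a structural subunit, was the highest member in the tumor cells of mice 1168 and PDGF1. It was at 3.78, 1458 and 0.652 FPKM in CTCs against 2.35, 898 and 38.4 FPKM in tumor cells, with a fitted difference of -1.12 (SE 4.42). The other structural genes of mouse 1168 were Psmb1 at 433 FPKM in the CTC against 289, Psmb3 at 170 against 158 and Psmb2 at 22.2 against 26.5, the lowest of the core in both cells.

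**Figure D2:**
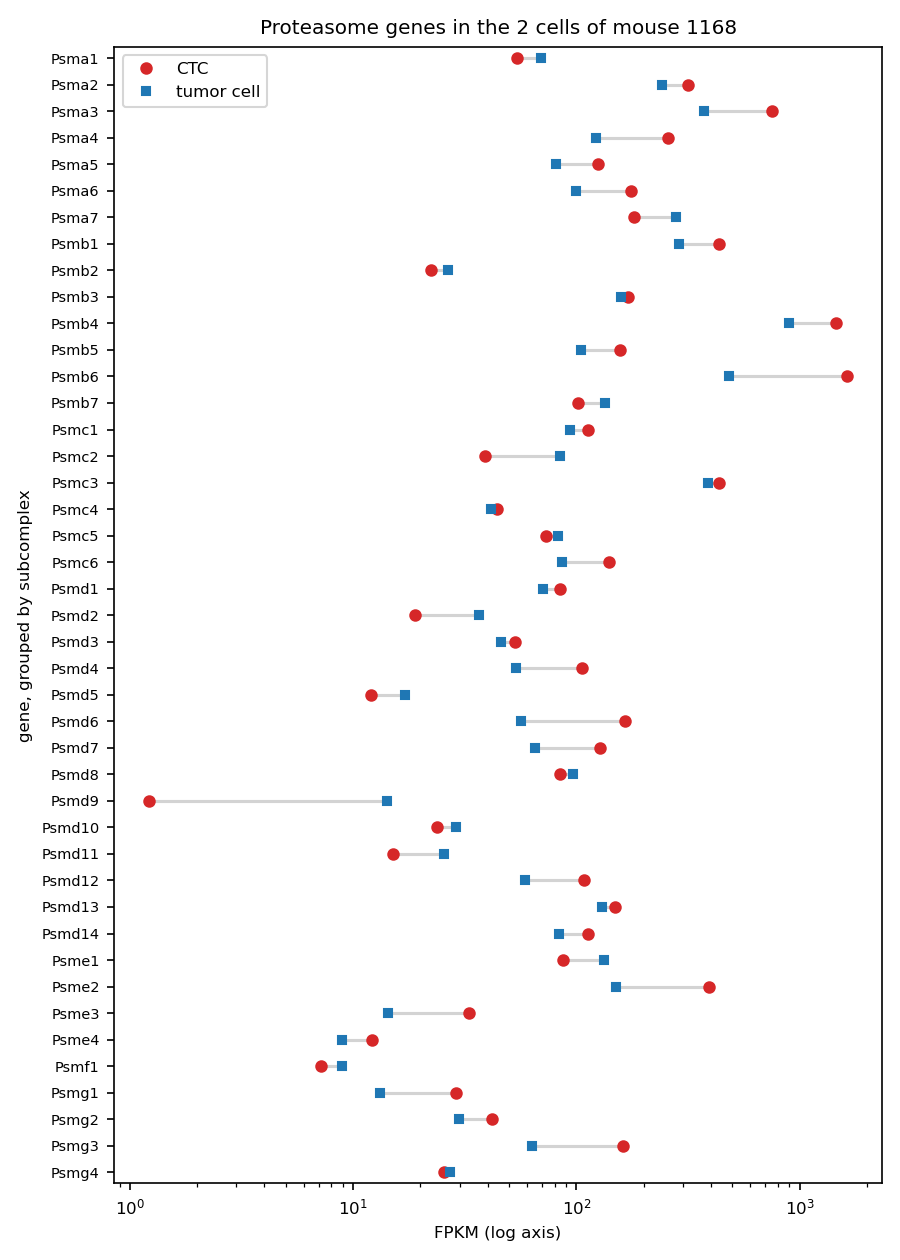
FPKM on a log axis of the 43 members at 1 FPKM or more in mouse 1168, with 1 row per gene, a circle for the CTC and a square for the tumor cell. The circle lies to the right of its square for 28 of 43 genes, Psmb6 by 3.39-fold, and Psmd9 is the circle farthest to the left at 1.22 FPKM.

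The base of the regulatory particle holds a ring of 6 ATPases. In mouse 1168, Psmc3 led them at 437 FPKM in the CTC and 389 FPKM in the tumor cell, and the other 5 lay between 39.1 and 140 FPKM in the CTC and between 41.4 and 93.5 FPKM in the tumor cell. Psmc2 was lower in the CTC, at 39.1 against 84.5 FPKM, and Psmc6 higher, at 140 against 86.3 FPKM, while Psmc1, Psmc3, Psmc4 and Psmc5 differed by less than 0.3 on the log2 scale. Over all cells, Psmc3 was at 1.06, 437 and 0.163 FPKM in CTCs against 1.29, 389 and 10.3 FPKM in the tumor cells (log2 difference -1.09, SE 3.75). Psmc1 was at 191, 113 and 0.210 FPKM in CTCs against 0.0659, 93.5 and 0.165 FPKM in tumor cells, and its difference of 2.60 (SE 3.5) came mainly from mouse 1157.

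Among the 14 non-ATPase genes of mouse 1168, Psmd6, a scaffold subunit of the lid, was higher in the CTC, at 165 against 56.6 FPKM. Psmd4, a ubiquitin receptor, was at 106 against 53.5 FPKM, Psmd7 at 128 against 65.0 FPKM and Psmd12 at 109 against 58.8 FPKM. Psmd14, the subunit that removes ubiquitin chains, was at 112 against 83.9 FPKM. Psmd2, a large scaffold of the base, went the other way at 18.9 against 36.6 FPKM, as did Psmd11, at 15.1 against 25.6 FPKM. Psmd1, Psmd3, Psmd8 and Psmd13 differed by less than 0.25 on the log2 scale. The assembly chaperone Psmd9 had the largest difference of any member in this mouse, at 1.22 FPKM in the CTC against 14.2 FPKM in the tumor cell, and its gene overlaps Hpd and 2 predicted genes on the opposite strand. The chaperones Psmd5 (12.0 against 17.1 FPKM) and Psmd10 (23.6 against 28.9 FPKM) were also lower in the CTC. Over all mice, Psmd4 was at 274, 106 and 0.304 FPKM in CTCs against 3.66, 53.5 and 0.321 FPKM in tumor cells, with a fitted difference of 2.28 (SE 3.78).

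The activators of mouse 1168 split by gene. Psme2, a subunit of the interferon-inducible ring that caps the core, was at 394 FPKM in the CTC against 150 FPKM in the tumor cell, while its partner Psme1 was at 87.2 against 133 FPKM. Psme2 has a copy, Psme2b, listed at 5.06 FPKM in that CTC and 1.95 FPKM in that tumor cell, and reads may be split between them. In the cells of the other mice Psme2 stayed under 1 FPKM, with 0.653 FPKM in the CTC against 0.143 FPKM in the tumor cell of mouse 1157, and 0.174 against 0.329 FPKM in mouse PDGF1. Psme3, a nuclear activator, was at 1.40, 33.1 and 0.0469 FPKM in CTCs against 0.0697, 14.3 and 2.95 FPKM in tumor cells. It was higher in the CTC of mice 1157 and 1168 and lower in that of mouse PDGF1 (log2 difference 0.14, SE 2.02). Psme4 and the inhibitor Psmf1 were low in mouse 1168, Psme4 at 12.2 FPKM in the CTC against 8.87 FPKM in the tumor cell and Psmf1 at 7.19 against 8.89 FPKM.

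The chaperones that start the alpha ring were higher in the CTC of mouse 1168 for 3 of 4 genes. Psmg3 was at 162 against 63.2 FPKM, Psmg1 at 29.0 against 13.1 FPKM, Psmg2 at 42.0 against 29.8 FPKM and Psmg4 at 25.6 against 27.1 FPKM. Psmg1 pairs with Psmg2, and Psmg3 with Psmg4. Over the mice Psmg1 was at 3.56, 29.0 and 0.0272 FPKM in CTCs against 0, 13.1 and 0 FPKM in tumor cells, with a fitted difference of 1.10 (SE 1.78, adjusted p = 0.9999, limma). Psmg3 was at 0.0707, 162 and 0.179 FPKM in CTCs against 0.248, 63.2 and 0.867 FPKM in tumor cells, so it was higher in the CTC in mouse 1168 and lower in the other mice.

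Although subunits enter the particle in equal numbers, their FPKM differed widely within a cell. Among the 14 core genes Psma1 to Psma7 and Psmb1 to Psmb7, the CTC of mouse 1168 ranged from 22.2 FPKM for Psmb2 to 1631 FPKM for Psmb6, with a median of 178 and quartiles at 133 and 404 FPKM. The tumor cell ranged from 26.5 FPKM for Psmb2 to 898 FPKM for Psmb4, with a median of 146 and quartiles at 101 and 286 FPKM. The order of genes was much alike in both. Over the 43 members without Psma8 and Psmb11, Spearman's rho between CTC and tumor cell was 0.172, 0.887 and 0.410 within the 3 mice, next to 0.515, 0.847 and 0.50 over 18772 named protein-coding genes. These are across genes, which are not independent replicates, and gene length and amplification are shared between cells.

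In mouse 1157 the CTC held a few subunits at high levels and little of the rest. The members summed to 1232 FPKM in the CTC against 42.9 FPKM in the tumor cell, a ratio of 28.8, or of 3.39 as a share of named protein-coding FPKM. Psmb5, Psmd4, Psmc1 and Psmb7 alone made up 92.4% of the sum in the CTC. Next came Psmc4 at 35.9 FPKM in the CTC against 3.01 FPKM in the tumor cell, Psmd13 at 12.2 against 1.38 FPKM, Psmd12 at 8.50 against 0.151 FPKM and Psma2. Genes of 1 ring differed widely in that CTC. The beta ring ranged from 0.0539 FPKM for Psmb11 to 541 FPKM for Psmb5, with a median of 1.27 FPKM, and the ATPases from 0.268 FPKM for Psmc6 to 191 FPKM for Psmc1, with a median of 1.29 FPKM. Of the 24 members at 1 FPKM or more in either cell, 12 had a CTC value higher by 1 or more and 2 a lower one (Psma7 and Psmd1), while 29.0% of all such rows were higher and 37.1% lower (24.4% and 34.9% of named protein-coding rows). The median over these 24 members was 0.88, where that over all such rows was -0.62. Over all 45 members, many of them low in both cells, it was 0.06. In the tumor cell the highest member was Psmd1, a scaffold of the base, at 5.98 FPKM, against 0.530 FPKM in the CTC.

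In mouse PDGF1 both cells held little of the complex, and different genes led. The members summed to 34.8 FPKM in the CTC against 95.8 FPKM in the tumor cell, a ratio of 0.363, or of 0.776 as a share of named protein-coding FPKM. In the CTC, Psma7 at 21.3 FPKM made up 61.2% of the sum, and no other member was above 1.77 FPKM. In the tumor cell Psmb4 at 38.4, Psmc3 at 10.3, Psma3 at 7.91 and Psmb1 at 6.74 FPKM made up 66.2%, and in the CTC these 4 were at 0.652, 0.163, 1.01 and 0.494 FPKM. Of the 13 members at 1 FPKM or more in either cell, 2 had a CTC value higher by 1 or more (Psma7 and Psmb3) and 9 a lower one, while 23.7% of all such rows were higher and 59.9% lower (20.5% and 59.6% of named protein-coding rows). The 9 included the lid genes Psmd3, Psmd6, Psmd7 and Psmd12, at 4.32, 3.11, 3.98 and 1.47 FPKM in the tumor cell and under 0.16 FPKM in the CTC. The median over the 13 members was -1.91, where that over all such rows was -1.18. Over all 45 members, many of them low in both cells, it was -0.04.

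**Figure D3:**
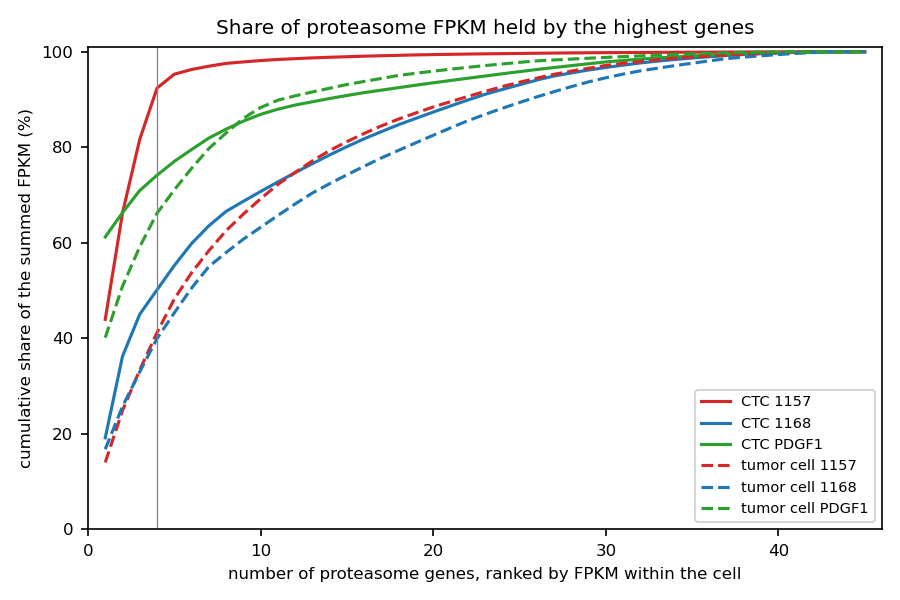
Cumulative share of the summed FPKM of the 45 proteasome genes (y axis, %) against the number of genes ranked by FPKM within the cell (x axis), with solid lines for CTCs and dashed lines for tumor cells in a color per mouse. The 4 highest genes, at the vertical line, held 92.4%, 50.1% and 74.1% in CTCs and 41.2%, 39.9% and 66.2% in the tumor cells.

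**Figure D4:**
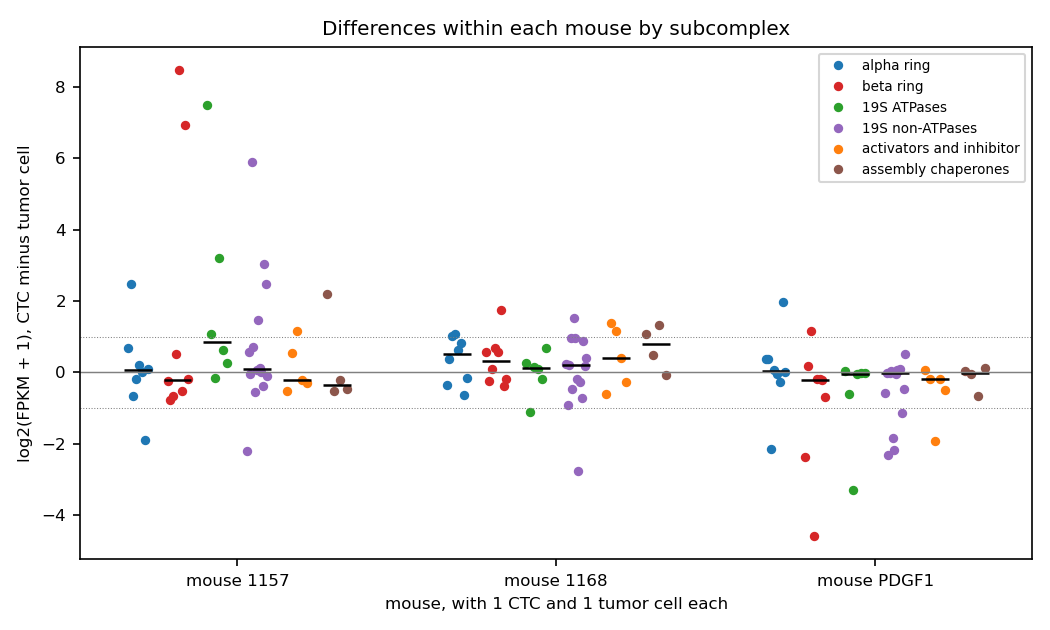
Difference of log2(FPKM + 1), CTC minus tumor cell, for each of the 45 genes within each mouse, with a point per gene colored by subcomplex, a black bar at the subcomplex median and dotted lines at 1 and -1. In each mouse most points lie between the dotted lines (31, 35 and 34 of 45 in mice 1157, 1168 and PDGF1). In mouse 1157 a few reach up to 8.47 (Psmb5), and in mouse PDGF1 Psmb4 lies lowest at -4.58.

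Each catalytic gene has an interferon-inducible counterpart that takes its place in the immunoproteasome of immune cells. In mouse 1168 Psmb8 held 24.5% of the FPKM of the pair Psmb5 and Psmb8 in the CTC, and 50.2% of it in the tumor cell, with Psmb8 itself at 50.8 FPKM against 106 FPKM. Of Psmb6 and Psmb9 together, Psmb9 held 4.11% in the CTC, against 5.09% for the tumor cell, and for Psmb7 and Psmb10 the share of Psmb10 was 30.1% and 23.6%. The pairs thus differed in direction, and the constitutive gene was the higher of the pair in each case but Psmb8 in the tumor cell. In the same 2 cells, 1 FPKM was reached by 6 of 12 microglia and macrophage genes in the CTC, and by 11 of 12 in the tumor cell. In the CTC these genes ran from 0 (Aif1 and C1qa) to 174 FPKM (Lyz2), and in the tumor cell from 0.0301 (Cx3cr1) to 1202 FPKM (Lyz2). Of 8 leukocyte genes, the CTC had 1 and the tumor cell 7 at 1 FPKM or more. The part of these markers in the pair shares was not tested. In mouse 1157 Psmb8 was at 740 FPKM in the CTC next to Psmb5 at 541 FPKM, a share of 57.8%. Psmb9 was at 0.839 and Psmb10 at 0.0686 FPKM there. Its tumor cell had a Psmb8 share of 57.8% too, with Psmb8 at 0.729 and Psmb5 at 0.532 FPKM. Both of these values were under 1 FPKM, and Psmb5 rested there on at most 5.28 fragments, with its longest transcript as length. The 2 cells differed widely in level, and whether their shares were alike cannot be told from so few fragments. For mouse PDGF1 the Psmb8 share was 53.5% (CTC) and 32.0% (tumor cell), from values under 1 FPKM.

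**Figure D5:**
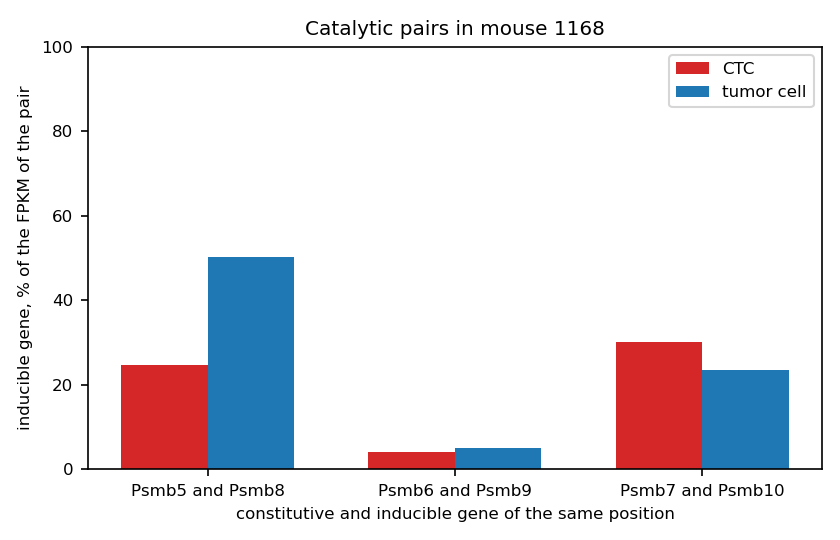
Share of the interferon-inducible gene in the FPKM of each catalytic pair (y axis, %) in the CTC (left bar) and the tumor cell (right bar) of mouse 1168, with 1 cell per bar. Psmb8 held 24.5% in the CTC, against 50.2% for the tumor cell, and the shares of the other pairs lay closer together.

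Other genes of the pathway showed no difference past the threshold either. By limma 0 of 24 tested genes passed in 5 related lists, and 0 had an unadjusted p under 0.05. With the mouse as a block 0 passed as well. There 1 of the 24, Nfyb, had an unadjusted p under 0.05 (unadjusted p = 0.00337, adjusted p = 0.638 by limma), next to 5.21% of all genes. Of the ubiquitin genes and E1 enzymes 4 were tested, with 2 positive and 2 negative differences. Ubb, which encodes a chain of ubiquitin units, was at 2.11, 411 and 0.636 FPKM in CTCs against 2.2, 314 and 5.37 FPKM in the tumor cells. Of 6 regulators tested, 3 were positive and 3 negative. Nfe2l1, the factor that raises proteasome genes, was at 0.743, 17.6 and 0.178 FPKM in CTCs against 0.236, 24.2 and 1.05 FPKM in tumor cells, and Nfyb, a CCAAT-binding subunit, at 440, 9.56 and 0.137 FPKM against 0.146, 6.24 and 0.195 FPKM. Of 8 delivery and deubiquitination genes tested, 2 were positive and 6 negative, and of 4 subunits or assembly factors outside the name pattern, 2 and 2. Among the last, Shfm1, a small subunit of the lid, was at 2.56, 376 and 0.489 FPKM in CTCs against 0.615, 144 and 0.247 FPKM in tumor cells. AI314180, which encodes a clamp between core and regulatory particle, was at 7.77, 16.0 and 0.0271 FPKM in CTCs against 2.19, 3.82 and 0.0908 FPKM in tumor cells. Of the 2 inducible subunits tested, 1 was positive and 1 negative.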

How the data were processed

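The table deposited by the authors gives FPKM per gene for 6 cells, per its name, on the build GRCm38. STAR 2.4.2a and Cufflinks 2.2.1 are listed in the submitters' processing notes. Per the labels' protocols, mRNA was amplified linearly in rounds of reverse transcription and transcription before stranded libraries were made. The annotation, the strand setting of counting and the treatment of reads that match several genes are not given in the sources used here. Of 45038 rows, 27 with names turned into dates and 207 with repeated names were left out, and 41450 of the 44804 kept matched GENCODE M21. All members were kept.

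The test was limma 3.58.1 (R 4.3.3) with the trend option, two-sided, on log2(FPKM + 1) of the 4165 genes that reached 1 FPKM in no fewer than 3 of 6 cells (with a cell left out 3 of 5, with a mouse left out 2 of 4), with Benjamini-Hochberg adjustment at 0.05. Its SEs follow the variance trend over all genes and come from the fit without the mouse as a block unless stated. A pseudocount understates the differences of low genes. The limma fit was also run on simulated data with independent noise for each gene and no effect of mouse or cell. That run cannot check how such effects bear on the fit. Tables were handled in Python 3.11.15 (pandas 2.3.3, numpy 2.4.6, scipy 1.17.1), and plots were drawn with matplotlib 3.10.9. Depth was estimated from 832 protein-coding genes of at least 3000 bases with a single annotated transcript.

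Values in every cell were given for the 3 catalytic genes, for the member of highest mean log2 level and of smallest p in each subcomplex, and for members whose groups did not overlap. Genes named beyond these in the accounts of single mice, and the motifs, were chosen after their values were seen. The members and lists were chosen with earlier results of these data known. Both cells of a mouse share its number, so the mouse pairs them. After removal of group means, they correlated across genes at 0.178, 0.689 and 0.428 in mice 1157, 1168 and PDGF1, and the CTC of mouse PDGF1 correlated at 0.422 with the tumor cell of mouse 1157.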

Additional observations from a re-analysis of the deposited data

Results flagged for a closer look

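Psmb5-ps, a processed pseudogene of Psmb5 that no comparison used, had 4.32 FPKM in one cell, the CTC of mouse PDGF1, above its level in all 3 tumor cells (at most 0.600 FPKM) and above Psmb5 itself in that cell (0.239 FPKM). Psme2b, a copy of Psme2, had 5.06 FPKM in one cell, the CTC of mouse 1168, above its level in all 3 tumor cells (at most 1.95 FPKM). Reads of such copies and of their parent genes cannot be told apart from FPKM alone.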

How the results depend on the processing

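In all settings tried, 0 members passed the threshold. Among all genes 0 passed except with the mouse as a block, the replicate block, where 1 gene did. No member had passed without the block, so it had no call to end. With 1 cell of either kind per mouse, the block cannot change the differences, only their SEs.

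The median difference of tested members (0.19) was 0.83 with a filter of 5 FPKM, 0.35 with quantile normalization and -0.36 when rescaled to named protein-coding genes. Over all genes tested the median (-0.06) was 0.81, -0.06 and -0.51 in these settings. The median of all members (0.09) was -0.27 when rescaled. Leaving out single cells or mice moved the median of tested members between -1.92 (without the CTC of mouse 1168) and 1.88 (without the tumor cell of that mouse). That of all members moved between -1.71 and 1.76 for the same cells, where the median of all genes tested was -0.98 and 0.96. The median of tested members was also negative without the tumor cell of mouse 1157 (-0.74) or PDGF1 (-0.75) and without mouse 1157 (-0.09) or 1168 (-0.24). The direction of these medians thus rested on single cells. Within mice, rescaling gave medians of -0.77, -0.090 and 0.25 in mice 1157, 1168 and PDGF1, and a pseudocount of 0.1 gave -0.27 in mouse PDGF1. As shares of named protein-coding FPKM the ratio of sums was 3.39 in mouse 1157 and 0.776 in mouse PDGF1.

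The difference turned to 0.026 for Psma7 and to -0.018 for Psme3 with quantile normalization, to -0.0074 for Psme3 with a pseudocount of 0.1, and to -0.28 for Psmb6 and -0.82 for Psme3 when rescaled. Leaving out each cell or mouse in turn, it ran from -1.03 to 3.55 for Psma2 (-0.16 to 2.68 where it passed the filter), -1.84 to 1.69 for Psma7, -4.13 to 0.97 for Psmb4, -2.69 to 2.69 for Psmb6, -0.30 to 4.37 for Psmb7 (to 4.32 where it passed the filter), -3.80 to 0.999 for Psmc3, -1.34 to 1.17 for Psme3 and -0.16 to 2.38 for Psmg1. It was positive in these 9 settings for Psmb5 (0.20 to 5.58), Psmc1 (0.16 to 4.92) and Psmd4 (0.48 to 4.63). In 4 of the 9 settings Psma2, Psmb5, Psmb7, Psmc1 and Psmg1 no longer passed the filter, and their differences of means there, taken without it after seeing the data, have no test.

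Members found depended on the level asked for. In the CTC of mouse 1157 there were 40 at 0.1 FPKM and 8 at 5 FPKM, and in its tumor cell 35 and 1. In the CTC of mouse PDGF1 there were 31 and 1, and in its tumor cell 36 and 4. Above the receptor level there were 1 in the CTC of mouse PDGF1, and among tumor cells 6 (mouse 1157) and 3 (mouse PDGF1). The shares of named protein-coding genes above it in these cells were 2.28%, 7.55% and 1.43%. Few fragments stand behind these values, so lower members were not shown to be absent at this depth.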
